A study of Rattus norvegicus with 18 samples.

Results

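Solute carriers are membrane proteins that move amino acids, sugars, ions, nucleosides and other small molecules into and out of the cell and its organelles. The genes described here are those with a symbol of the form Slc followed by a number on a rat expression array, without Slc5a5 (the iodide symporter), Slc2a1 and Slc16a1. Of 120 genes that matched this form, 3 were left out, and the 117 that remain were 117 of 4736 genes with a probe set of a single symbol. They were represented by 176 probe sets of 8740, and each of the 41 genes with several probe sets was described by the one with the highest mean over the 18 arrays. The genes were then grouped by substrate.

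Thyroid follicular cells take up iodide and amino acids at their base, make thyroglobulin, and release thyroid hormone. Thyroid-stimulating hormone (TSH) acts on them through a receptor that raises cyclic AMP. The Slc families differ in mechanism: some couple uptake to the sodium gradient, some exchange one solute for another, and the Slc25 family sits largely in the inner mitochondrial membrane, where the ADP/ATP carriers pass ATP out to the cytosol.

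The arrays, of the 1-colour Affymetrix type, were hybridised with RNA of 2 established lines of rat thyroid cells. FRTL5 cells, labelled differentiated thyrocytes, had 5 days in TSH-free 5H medium and were treated with bovine TSH at 0.1 U/L. FRT/TSHR cells, labelled de-differentiated thyrocytes, were grown in Coon's modification of Ham's F12 and were treated at 1 U/L. The suffix TSHR is the symbol of the TSH receptor, and the labels do not describe how the line was made. All cells of both lines, the basal ones included, had 12 h in serum-free medium before the time of stimulation. The 6 groups were each line unstimulated (basal), at 30 min and at 17 h of TSH, with 3 biological replicates apiece. Line, medium and TSH dose differed together and cannot be told apart. The basal arrays of a line served for its 30 min and its 17 h comparison, and no untreated group at 17 h was analysed here, so time in culture and TSH cannot be told apart either.

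Values are log2 expression after RMA, the authors' normalization. A difference of 1 on this scale is 2-fold. Array medians lay between 5.47 and 5.59. The thyroid marker Tg, thyroglobulin, was 11.21 ± 0.70 in basal FRTL5 cells (SD, n = 3) and 4.17 ± 0.19 in basal FRT/TSHR cells, and Tshr was 6.56 ± 0.19 and 6.60 ± 0.14. The Tshr values are those of the brightest of its 4 probe sets. In the same order, Pax8 was 9.79 ± 0.31 and 8.58 ± 0.06, Nkx2-1 7.22 ± 1.0 and 5.98 ± 0.16, and Foxe1 8.67 ± 0.48 and 6.78 ± 0.29. The measured C cell, endothelial and leukocyte markers (Calca, Pecam1, Vwf, Kdr, Ptprc, Cd4 and Itgam) had basal means between the lines that differed by less than 0.3. Of 6 fibroblast and mesenchymal markers, Col1a1, Col1a2, Col3a1 and Pdgfrb also differed by less than 0.3. Acta2 was 5.04 ± 0.27 in basal FRTL5 and 5.48 ± 0.04 in basal FRT/TSHR cells. Vim, vimentin, was 7.93 ± 0.34 and 8.55 ± 0.10 and was not called at basal (adjusted p = 0.176). At 30 min it was 7.54 ± 0.54 in FRTL5 and 8.82 ± 0.35 in FRT/TSHR cells, higher by 1.28 (adjusted p = 0.00547). At 17 h it was 8.57 ± 0.54 in FRTL5 and 8.58 ± 0.49 in FRT/TSHR cells. Its part in the differences between the lines was not tested. On the FRTL5 arrays numbered 1 the beta-actin 3' signal exceeded the 5' signal by 1.13 to 1.22, against at most 0.28 on the other 15 arrays, and calls that change without these 3 arrays are named with each comparison. A gene is said to have risen or fallen where limma's adjusted p was under 0.05 over all 8740 probe sets of that comparison.

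Most solute carriers differed little between the 6 groups. The span between the highest and the lowest group mean had a median of 0.28 over the 117 genes, was under 0.5 in 82 of them, and reached 1 in 15. The median SD within a group was 0.14. Of the 117, 53 had a mean at or below 5.55, the median of all probe sets. With no detection calls, a narrow span in a dim gene does not show steady expression. The 15 with the widest span were Slc25a4, at 5.08, then Slc22a18, Slc27a1, Slc4a4, Slc7a5, Slc12a2, Slc6a8, Slc7a1, Slc25a23, Slc12a7, Slc25a30, Slc1a1, Slc6a6, Slc4a7 and, at 1.12, Slc37a1.

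Both pairs of genes below carry much of what follows, and their upstream sequences are shown for that reason. Slc7a1 and Slc7a5, amino acid transporters, rose in FRTL5 cells at 17 h of TSH. Slc25a4 and Slc25a5 are the mitochondrial ADP/ATP carriers, of which the first differed more between the lines than any other solute carrier and the second was not called at basal. Each sequence is the 250 bases before the annotated start in the RefSeq promoter table of build GRCr8, 5′ to 3′ on the gene's own strand. Capitals mark matches on either strand to 5 short words, none of which contains another: TATAA (TATA box core), TGATGNAA (a composite C/EBP-ATF site), TGACG (the half-site of the cyclic AMP response element, CRE), CACGTG (E-box) and GGGCGG (GC box, CCGCCC on the other strand). Of the 117 genes, 98 had an entry in the table, with 109 entries among them because some genes had several. The first entry listed for each of the 4 genes is shown.
Slc7a1: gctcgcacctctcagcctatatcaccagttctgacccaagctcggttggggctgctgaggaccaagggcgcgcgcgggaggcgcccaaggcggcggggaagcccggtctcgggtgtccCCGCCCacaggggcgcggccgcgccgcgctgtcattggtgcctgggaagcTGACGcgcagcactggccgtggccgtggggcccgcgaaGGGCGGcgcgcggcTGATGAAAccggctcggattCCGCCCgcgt
Slc7a5: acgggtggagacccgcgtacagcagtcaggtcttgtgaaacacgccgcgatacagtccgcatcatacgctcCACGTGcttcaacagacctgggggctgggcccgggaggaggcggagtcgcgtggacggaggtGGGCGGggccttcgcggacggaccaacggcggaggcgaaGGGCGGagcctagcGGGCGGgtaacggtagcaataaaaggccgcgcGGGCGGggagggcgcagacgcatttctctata
Slc25a4: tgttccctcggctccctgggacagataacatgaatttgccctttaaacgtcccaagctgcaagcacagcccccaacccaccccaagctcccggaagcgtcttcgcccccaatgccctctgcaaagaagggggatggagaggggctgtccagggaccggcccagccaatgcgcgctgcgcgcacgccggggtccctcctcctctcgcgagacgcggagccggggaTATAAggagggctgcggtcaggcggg
Slc25a5: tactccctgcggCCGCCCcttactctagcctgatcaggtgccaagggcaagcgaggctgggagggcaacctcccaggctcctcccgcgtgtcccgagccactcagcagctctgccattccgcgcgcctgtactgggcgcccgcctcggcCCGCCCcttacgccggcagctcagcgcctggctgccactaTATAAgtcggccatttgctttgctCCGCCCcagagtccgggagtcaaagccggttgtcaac

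The Slc7a1 sequence lies at chr12:11664238-11664487 on the plus strand, Slc7a5 at chr19:66872413-66872662 on the minus strand, Slc25a4 at chr16:52805271-52805520 on the plus strand and Slc25a5 at chrX:120897366-120897615 on the plus strand. Slc7a1 had 1 TGATGNAA match, TGATGAAA, that began 30 bases before the start, and 1 TGACG match 82 bases before it. The first of these words was found in 3.4% and the second in 18.2% of 33469 promoters of the same length. Slc7a5 had neither, and held 1 E-box, a word present in 5.6% of all promoters, 179 bases before the start. GC boxes numbered 3 in Slc7a1, 4 in Slc7a5, 3 in Slc25a5 and 0 in Slc25a4, and 30.5% of all promoters held at least 1. Slc25a4 had a TATAA match 26 bases before the start and Slc25a5 had its match at 61 bases, a word found in 24.0% of all promoters. These matches describe the letters and were not set against any measurement of binding.

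In FRTL5 cells, 17 h of TSH went with a rise of 3 solute carriers and a fall of 2, and none of the 5 changed 2-fold. The share of all probe sets called was 1.64% higher and 1.92% lower, so 2.56% and 1.71% of the 117 lie close to the background. The median difference over the 117 was -0.01, against 0.01 over all probe sets. An unadjusted p under 0.05 was found for 23 of the 117, a larger share than the 12.7% of all probe sets. The gap between these shares was not tested.

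Slc7a1 and Slc7a5 were the members that rose among 20 amino acid and peptide carriers. Slc7a1, the cationic amino acid transporter that carries arginine and lysine, read 5.57, 5.41 and 5.5 on the basal FRTL5 arrays and 6.70, 6.29 and 6.36 at 17 h. The groups did not overlap, and the difference was 0.96 ± 0.17 (SE; adjusted p = 0.00432). Of its other probe sets, one gave 0.83 (adjusted p = 0.0278) and one 0.24 (adjusted p = 0.616). Slc7a5, the light chain of a carrier of large neutral amino acids that also accepts thyroid hormones, read 6.83, 6.80 and 6.92 at basal and 7.51, 8.01 and 7.85 at 17 h. Every 17 h array lay above every basal array, and the difference was 0.94 ± 0.21 (adjusted p = 0.0208). Its heavy chain partner Slc3a2 differed by -0.03 ± 0.23 and its groups overlapped.

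The third gene that rose was Slc35b1, a carrier of the endoplasmic reticulum membrane from a family of nucleotide sugar transporters. It read 9.10, 8.94 and 8.88 at basal and 9.62, 9.56 and 9.60 at 17 h. The 17 h arrays lay within 0.06 of each other and above all basal arrays, with a difference of 0.62 ± 0.12 (adjusted p = 0.00882). Its other probe set gave 0.61 (adjusted p = 0.0187). Of the 2 other Slc35 genes on the array, neither was called.

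Slc12a7 and Slc6a8 fell. Slc12a7, a potassium-chloride cotransporter, read 8.83, 8.72 and 8.70 at basal and 8.03, 8.31 and 8.0 at 17 h, a difference of -0.64 ± 0.13 (adjusted p = 0.0143). Slc6a8, the creatine transporter, read 8.21, 7.94 and 7.79 at basal and 7.57, 7.15 and 7.25 at 17 h, a difference of -0.66 ± 0.17 (adjusted p = 0.0448). In both genes all 17 h arrays lay below all basal arrays. Of 15 inorganic cation carriers Slc12a7 alone was called, and of 12 carriers of neurotransmitters, taurine and creatine Slc6a8 alone.

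Slc7a1 and Slc35b1 were called in each of the 6 fits that left out 1 array of the comparison. Slc12a7 lost its call in 2 of them, with an adjusted p of up to 0.0683 without 17 h replicate 3, and also without 17 h replicate 1. Slc6a8 lost it in 4, up to 0.188 without 17 h replicate 2, and Slc7a5 in 4, up to 0.103 without the same array. For both genes the other 3 arrays whose loss ended the call were basal replicates 1 and 2 and 17 h replicate 3. In a fit of the 6 compared arrays alone Slc7a1 (adjusted p = 0.0297) and Slc7a5 (0.0391) were called, while Slc35b1 (0.0532), Slc12a7 (0.0771) and Slc6a8 (0.141) were not. Slc6a8 also missed with median-centred arrays (0.0567) and with a trended robust prior (0.0589). Without the 3 FRTL5 arrays numbered 1, Slc12a7 had an adjusted p of 0.105 and Slc6a8 of 0.0802, and 4 genes were called: Slc7a1, Slc7a5, Slc35b1 and, in addition, Slc4a4.

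**Figure D1:**
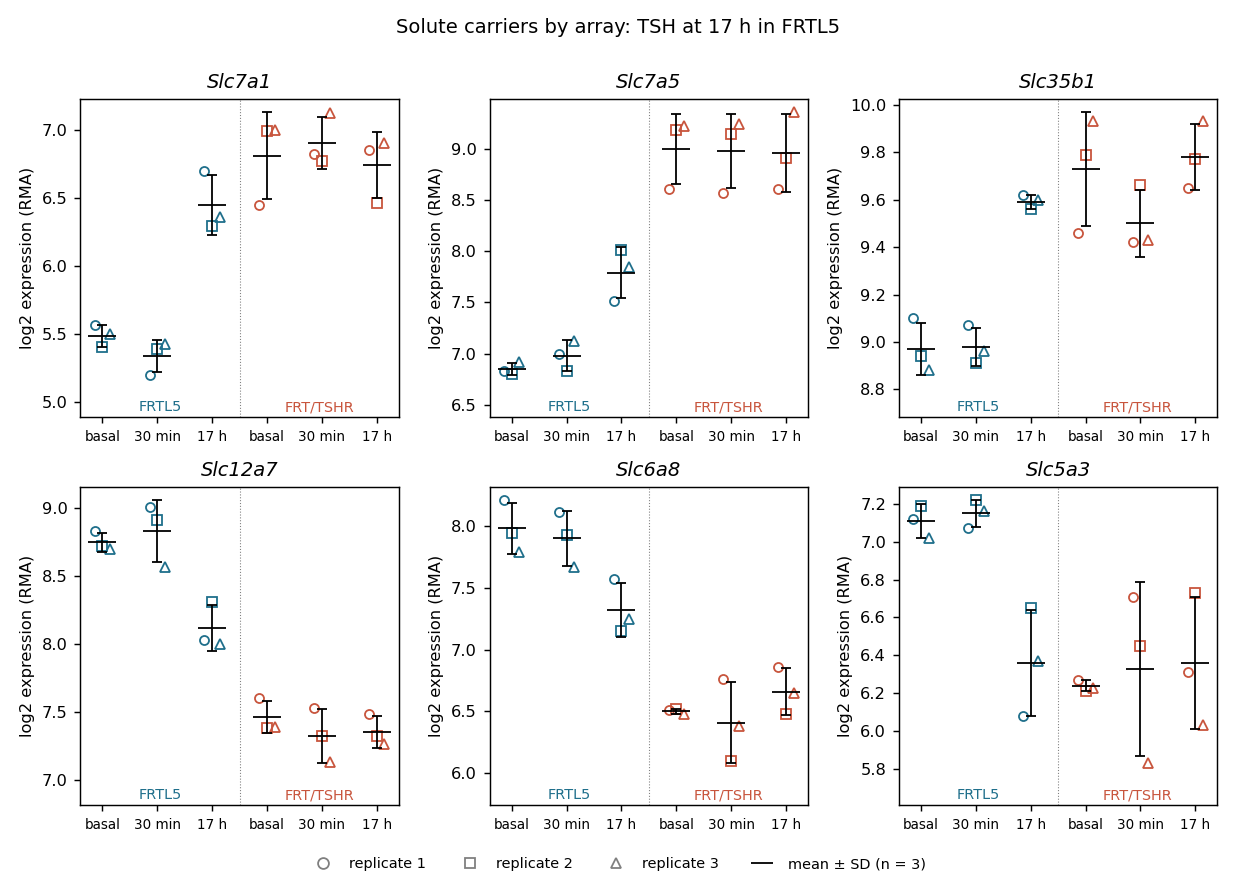
Log2 expression of 6 solute carriers (vertical axes, RMA log2 units, not starting at 0) on each of the 18 arrays, by group, with FRTL5 in blue and FRT/TSHR in red; symbols mark the replicate number and bars the mean ± SD of 3 arrays. In FRTL5 cells Slc7a1, Slc7a5 and Slc35b1 are higher and Slc12a7, Slc6a8 and Slc5a3 lower on every 17 h array than on every basal array, while the FRT/TSHR groups overlap.

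Arrays of the same replicate number varied together within each line, and a fit with the number as a block called 14 solute carriers at 17 h, 5 higher and 9 lower. Of all probe sets the same fit called 4.15% higher and 5.77% lower. It kept all 5 genes above and added 9. A block with the number shared by both lines, chosen after seeing the data, called 10, 4 higher and 6 lower, against 2.53% and 3.28% of all probe sets.

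The added genes included both ADP/ATP carriers. Slc25a5 read 9.88, 9.87 and 9.42 at basal and 10.81, 10.23 and 10.29 at 17 h. All 17 h arrays were above all basal arrays, and the difference of 0.72 had an adjusted p of 0.0629 without and 0.00217 with the block. Slc25a4 read 8.80, 8.83 and 8.39 at basal and 9.44, 9.08 and 8.92 at 17 h, without overlap. Its difference of 0.48 had an adjusted p of 0.103 without and 0.00739 with the block. In 2 other mitochondrial carriers the difference was negative: Slc25a23, a carrier of ATP-magnesium and phosphate, at -0.82 (0.166 without, 0.0432 with the block) and Slc25a14, an uncoupling protein homologue, at -0.57 (0.195 and 0.0158). The second Slc25a14 probe set gave -0.06 (adjusted p = 0.958).

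The other genes added by the block were lower at 17 h. Slc5a3, the sodium/myo-inositol cotransporter, read 7.12, 7.19 and 7.02 at basal and 6.08, 6.65 and 6.37 at 17 h. The groups were 0.37 apart at their nearest, and the difference of -0.75 had an adjusted p of 0.0559 without and 0.00737 with the block. Slc4a4, the electrogenic sodium bicarbonate cotransporter, read 5.80, 6.90 and 7.04 at basal and 5.40, 5.72 and 5.94 at 17 h. The groups overlapped through basal replicate 1, one of the arrays with the high beta-actin 3' signal. The difference of -0.89 (adjusted p = 0.19 without and 0.00198 with the block) was -1.14 without the arrays numbered 1 (adjusted p = 0.00131, no block). Slc16a7, a monocarboxylate transporter, differed by -0.79 (0.0657 and 0.0112), Slc22a5, the carnitine transporter, by -0.50 (0.0522 and 0.0126) and the anion exchanger Slc4a2 by -0.38 (0.282 and 0.0181).

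Groups that did not overlap were found for 15 of the 117 solute carriers in the higher direction, a larger share than the 7.6% of all probe sets. In the lower direction there were 9, a share close to the 7.78% of all probe sets. These shares were not tested against each other. Vitamin, choline and nucleoside carriers had differences between -0.21 and 0.25, and the 5 iron and zinc carriers between -0.20 and 0.05.

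In the other 3 comparisons of TSH with basal no solute carrier was called by limma. At 30 min in FRTL5 cells 2 had an unadjusted p under 0.05 (2.76% of all probe sets) and the smallest adjusted p was 0.845; 0.24% of all probe sets were called. The gene with that value was Slc13a3, a dicarboxylate transporter, at 0.30 ± 0.09, and the other was Slc22a5 at -0.40 ± 0.14. Slc7a1 and Slc7a5 read 5.20 to 5.43 and 6.83 to 7.12 at 30 min, each overlapping its basal group. In FRT/TSHR cells 1 solute carrier had an unadjusted p under 0.05 at 30 min (Slc41a3, a magnesium carrier, 0.30 ± 0.12) and 1 at 17 h (Slc6a11, a GABA transporter, 0.29 ± 0.13), against 2.38% and 1.24% of all probe sets, and 0% of all probe sets were called at either time.

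The 30 min differences in FRT/TSHR cells were small and leaned to one side. Values were above basal for 81 of 117 solute carriers, or 69.2%, against 58.1% of all probe sets, with a median of 0.06 against 0.03. Groups did not overlap for 11 in the higher direction and 1 in the lower, against 5.43% and 2.4% of all probe sets. The differences ranged from -0.28 to 0.30. At 17 h the median was 0.01 and the range from -0.43 to 0.36.

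The genes that changed in FRTL5 cells had small differences in FRT/TSHR cells at 17 h. Slc7a1 read 6.45, 6.99 and 7.0 at basal and 6.85, 6.46 and 6.90 at 17 h in FRT/TSHR cells. Slc7a5 read 8.61, 9.18 and 9.22 at basal and 8.61, 8.91 and 9.36 at 17 h. Both pairs of groups overlapped. The difference between the lines in the 17 h effect (FRT/TSHR minus FRTL5) was -1.03 ± 0.23 for Slc7a1 (adjusted p = 0.0548) and -0.98 ± 0.30 for Slc7a5 (adjusted p = 0.196). In this test 0 of 117 solute carriers and 0.789% of all probe sets were called by limma, and 12 solute carriers had an unadjusted p under 0.05 (8.38% of all probe sets). Without the FRTL5 arrays numbered 1 Slc4a4 was called in this test, at 0.99 (adjusted p = 0.0296).

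With the replicate block 6 of the 117 differed between the lines in the 17 h effect, 2 higher and 4 lower in FRT/TSHR, against 2.11% and 2.07% of all probe sets. They were Slc7a1 (-1.03, adjusted p = 0.0145), Slc7a5 (-0.98, 0.00683), Slc25a5 (-0.80, 0.0214), Slc35b1 (-0.56, 0.0359), Slc6a8 (0.82, 0.0116) and Slc5a3 (0.87, 0.0434). With the block shared by both lines 3 were called: Slc7a1, Slc7a5 and Slc6a8, 1 higher and 2 lower, against 0.789% and 0.904% of all probe sets. For the 30 min effect no solute carrier differed between the lines, 3 had an unadjusted p under 0.05 (2.6% of all probe sets), and 0.0343% of all probe sets were called.

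**Figure D2:**
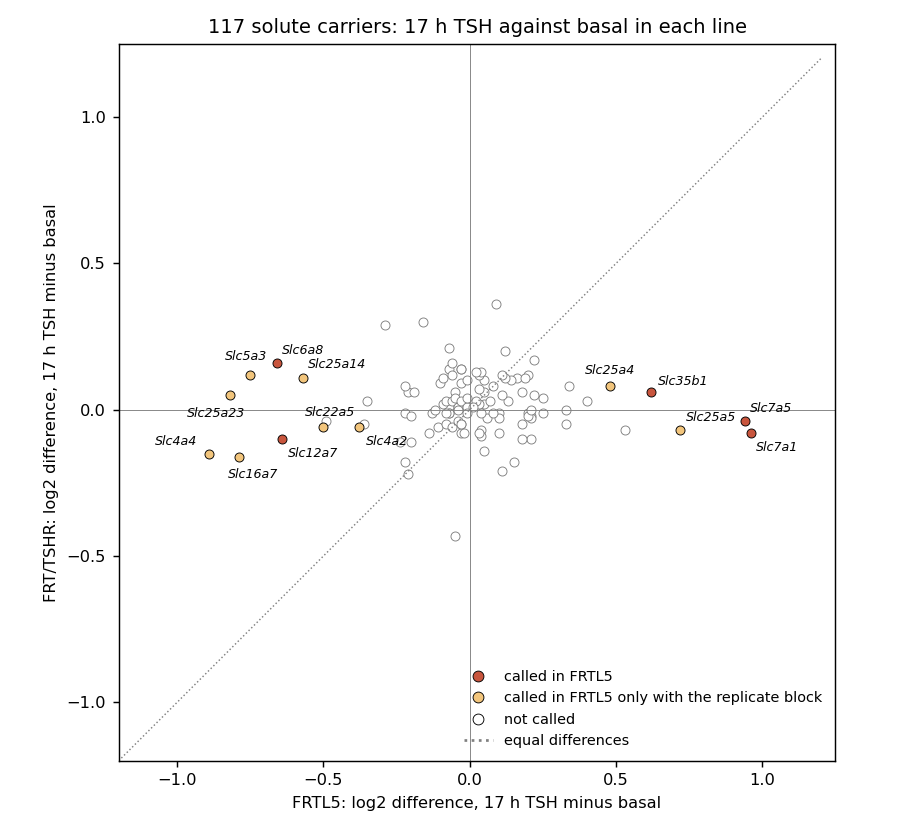
Log2 difference between 17 h of TSH and basal for 117 solute carriers, in FRTL5 (horizontal axis) and FRT/TSHR (vertical axis); filled points were called in FRTL5, in red without and in yellow only with the replicate block, and the dotted line marks equal differences. FRTL5 differences run from -0.89 to 0.96, and FRT/TSHR differences stay between -0.43 and 0.36.

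Between the unstimulated lines 32 of 117 solute carriers differed, 14 higher and 18 lower in FRT/TSHR cells. Of all probe sets 13.3% were higher and 12.2% lower, so the solute carriers as a whole lie near the background. The ADP/ATP carrier Slc25a4, the carriers Slc27a1 and Slc4a4 and the creatine transporter Slc6a8 were lower, and Slc7a5, Slc22a18, Slc12a2 and Slc7a1 were higher. Of the 32, 13 differed by 2-fold or more, 7 higher and 6 lower. In bulk cultures fewer cells with a transcript and less transcript per cell cannot be told apart.

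Mitochondrial carriers held the largest difference. Slc25a4 read 8.80, 8.83 and 8.39 in basal FRTL5 cells and 3.89, 4.14 and 4.17 in basal FRT/TSHR cells. The lowest of the 9 FRTL5 arrays at any time read 8.39 and the highest of the 9 FRT/TSHR arrays 4.30. The basal difference was -4.60 ± 0.15 on the log2 scale (adjusted p = 1.7e-12). The FRT/TSHR level was close to that of the endothelial marker Pecam1 in the same cells (4.22 ± 0.17). With no detection calls it was not shown to lie above background, so no fold is given. The same limit holds for other genes read near this level in either line. The paralogue Slc25a5 read 9.88, 9.87 and 9.42 in FRTL5 and 9.90, 9.52 and 9.91 in FRT/TSHR cells, so the groups overlapped, with a difference of 0.05. The mitochondrial phosphate carrier Slc25a3 read 11.00, 10.70 and 10.67 in FRTL5 and 10.60, 10.60 and 10.50 in FRT/TSHR cells and was not called at basal.

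Of the 12 genes in this group, which includes the peroxisomal Slc25a17, 2 were higher and 4 lower. Slc25a1, which exports citrate from mitochondria, read 8.95, 9.36 and 8.91 in FRTL5 and 9.96, 9.95 and 10.04 in FRT/TSHR cells (0.91 ± 0.24, adjusted p = 0.00818). Slc25a30, an orphan carrier, was higher by 1.31 ± 0.34 (adjusted p = 0.00782), and its adjusted p was 0.052 without FRT/TSHR basal replicate 1. Slc25a23 was lower by 1.53 on the log2 scale, from 5.46, 6.63 and 5.86 to 4.60, 4.36 and 4.40. Its FRT/TSHR level was likewise not shown to lie above background. Slc25a26, the S-adenosylmethionine carrier, differed by -0.49 ± 0.11 and Slc25a14 by -0.76 ± 0.21, the latter with a second probe set at -0.08 (adjusted p = 0.845). The Slc25a14 call was lost without FRTL5 basal replicate 1 (adjusted p = 0.069) and without FRT/TSHR basal replicate 2.

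**Figure D3:**
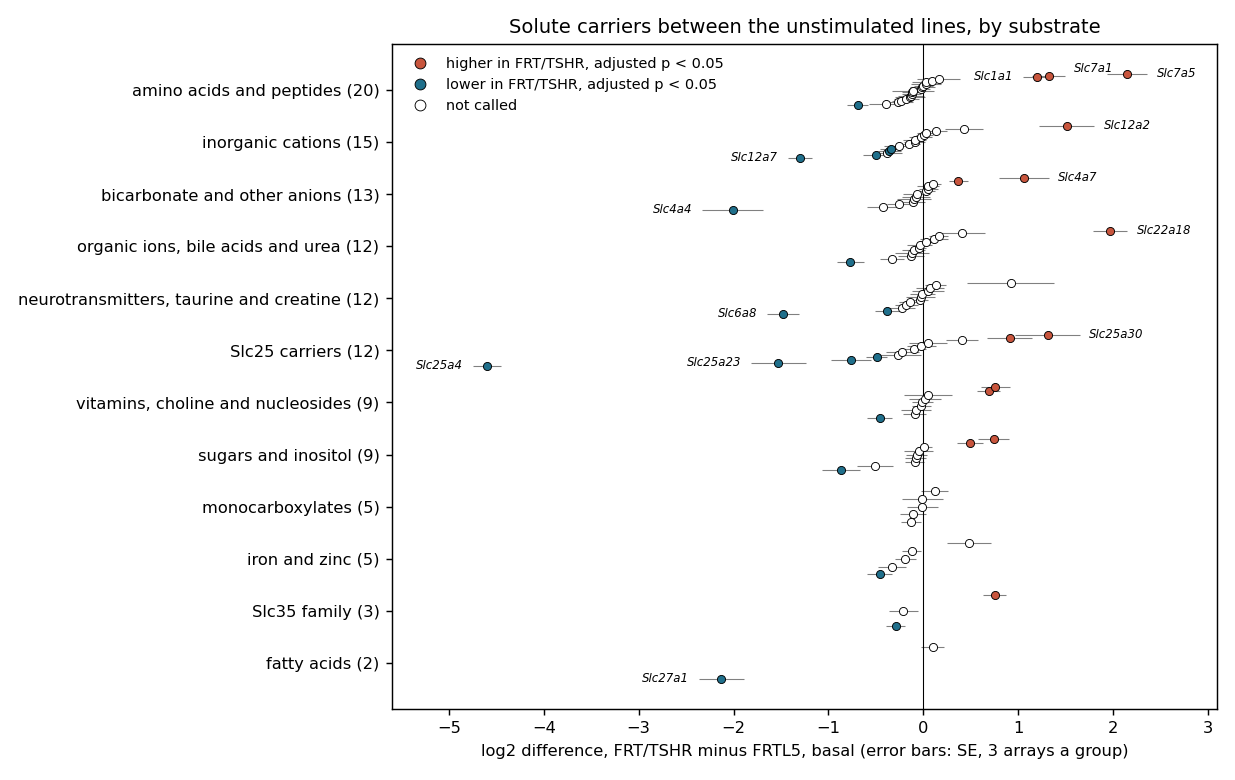
Log2 difference between basal FRT/TSHR and basal FRTL5 cells (horizontal axis) for 117 solute carriers in 12 substrate groups, with the number of genes in parentheses; error bars are SE, red and blue mark genes called higher and lower, and names are given for differences over 1. Slc25a4 at -4.60 lies far below all others, and every group but the 5 monocarboxylate carriers holds at least 1 called gene.

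Amino acid and peptide carriers gave 3 higher and 1 lower of 20. Slc7a5 read 6.83, 6.80 and 6.92 in FRTL5 and 8.61, 9.18 and 9.22 in FRT/TSHR cells, 4.45-fold higher (2.15 ± 0.21, adjusted p = 9.7e-07). Slc7a1 was 2.5-fold higher (1.32 ± 0.17), and its 2 other probe sets gave 1.16 and 0.63, both called. Slc1a1, a glutamate and aspartate transporter, read 6.04, 6.14 and 6.34 in FRTL5 and 7.41, 7.48 and 7.24 in FRT/TSHR cells (1.2 ± 0.15), and its 2 other probe sets gave 1.65 and 0.78, both called. The peptide transporter Slc15a2 was lower, at 5.04, 4.76 and 4.71 against 4.05, 4.15 and 4.25 (-0.69 ± 0.11), the FRT/TSHR level not shown to lie above background. In all of these genes the groups did not overlap. Slc3a2 read 9.16 to 9.47 in FRTL5 and 9.36 to 9.53 in FRT/TSHR cells.

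Ion carriers moved in both directions. Slc12a2, the sodium-potassium-chloride cotransporter, read 6.85, 6.06 and 6.24 in FRTL5 and 8.15, 7.63 and 7.91 in FRT/TSHR cells (1.51 ± 0.29, adjusted p = 7.7e-04). Of its 3 other probe sets 2 were called higher, at 0.56 and 0.61, and the dimmest gave -0.26 (adjusted p = 0.36). Its relative Slc12a7, which moves potassium and chloride outward, read 8.83, 8.72 and 8.70 against 7.60, 7.38 and 7.39 (-1.30 ± 0.13, adjusted p = 1.6e-06). Slc12a3, Slc8a1 and Slc8a3 were also called lower, at -0.50, -0.34 and -0.36, which made 1 higher and 4 lower of 15. The Slc8a3 groups overlapped. With an array left out, Slc8a1 lost its call in 5 of the 6 fits (adjusted p up to 0.154; it kept it without FRTL5 basal replicate 2), Slc8a3 in 4 (up to 0.161; kept without FRTL5 basal replicate 1 or FRT/TSHR basal replicate 2) and Slc12a3 in 2 (up to 0.0631; without FRTL5 basal replicate 1 or FRT/TSHR basal replicate 3).

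The 2 sodium bicarbonate cotransporters differed in opposite directions. Slc4a4 read 5.80, 6.90 and 7.04 in FRTL5 and 4.75, 4.44 and 4.51 in FRT/TSHR cells (-2.01 ± 0.32, adjusted p = 1.7e-04). The FRT/TSHR level of Slc4a4 was not shown to lie above background. Slc4a7, the electroneutral one, read 6.94, 6.33 and 6.01 in FRTL5 and 7.98, 7.36 and 7.13 in FRT/TSHR cells (1.06 ± 0.26, adjusted p = 0.00532). Neither pair of groups overlapped. The sulphate transporter Slc26a1 was higher by 0.37, with an adjusted p of 0.0572 without FRT/TSHR basal replicate 2. In the anion group 2 of 13 were higher and 1 lower.

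The fatty acid transporter Slc27a1 read 8.23, 9.12 and 8.86 in FRTL5 and 6.85, 6.39 and 6.57 in FRT/TSHR cells, 4.39-fold lower (-2.13 ± 0.24, adjusted p = 3.4e-06). The related Slc27a2 differed by 0.10 and was not called. Slc6a8 read 8.21, 7.94 and 7.79 against 6.51, 6.52 and 6.48 (-1.48 ± 0.17, adjusted p = 5.8e-06). The carnitine transporter Slc22a5 was lower by 0.77 on the log2 scale. Slc22a18, encoded in an imprinted gene cluster, was higher, at 4.72, 4.55 and 4.29 against 6.95, 6.52 and 6.0 (1.97 ± 0.18, adjusted p = 4.3e-07). Its FRTL5 level was likewise not shown to lie above background. Its lowest FRT/TSHR array was 1.28 above its highest FRTL5 array.

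**Figure D4:**
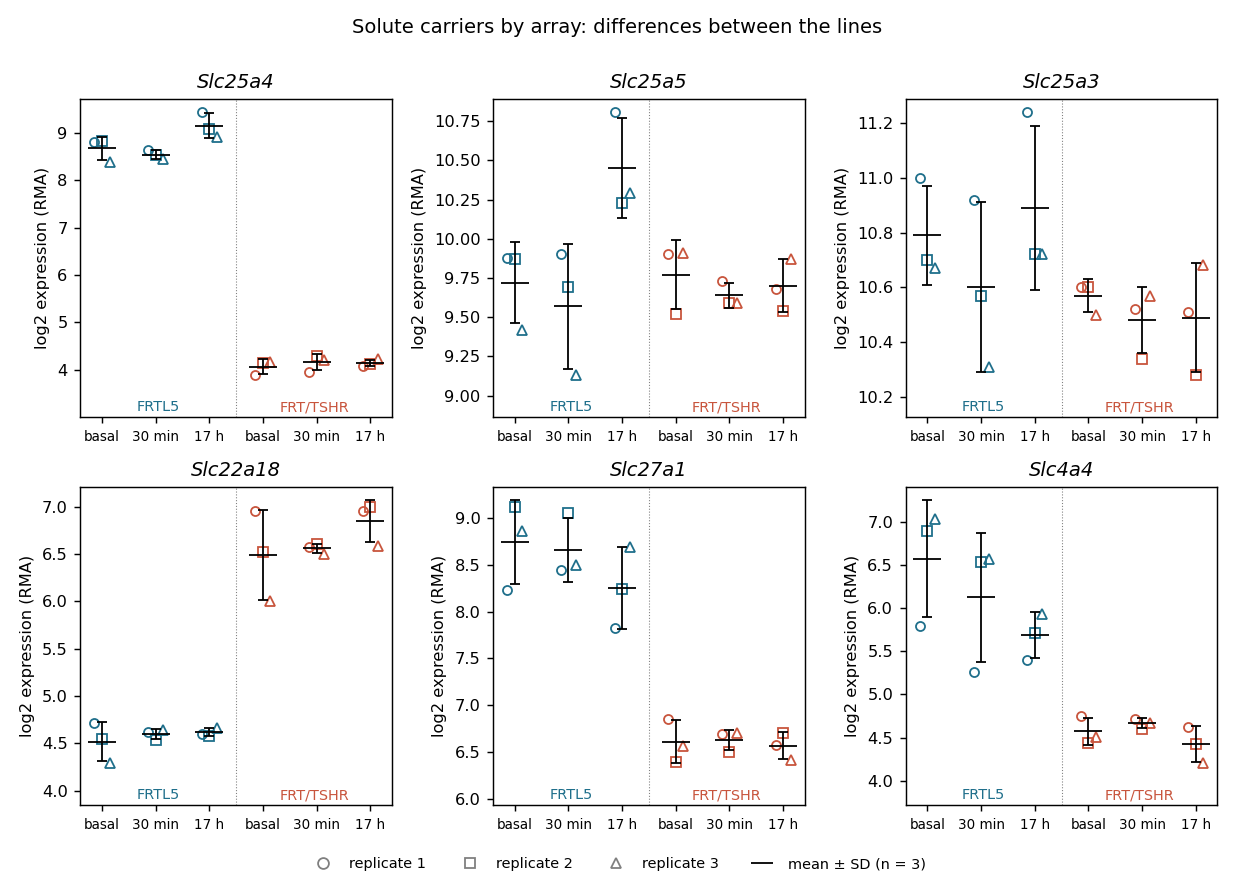
Log2 expression of 6 solute carriers (vertical axes, RMA log2 units, not starting at 0) on each of the 18 arrays, by group, with FRTL5 in blue and FRT/TSHR in red; symbols mark the replicate number and bars the mean ± SD of 3 arrays. Slc25a4 is at least 8.39 on every FRTL5 array and at most 4.30 on every FRT/TSHR array, while Slc25a5 overlaps between the lines except at 17 h.

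Among sugar carriers the inositol cotransporter Slc5a3 was lower (-0.87 ± 0.20), and the sugar phosphate exchanger Slc37a1 (0.74 ± 0.16) and the fructose transporter Slc2a5 (0.49 ± 0.14) were higher. Among vitamin, choline and nucleoside carriers the reduced folate carrier Slc19a1 (0.69 ± 0.12) and Slc44a4 (0.76 ± 0.15) were higher, and the nucleoside transporter Slc28a1 (-0.46 ± 0.13) was lower. Slc35b1 was higher by 0.75 ± 0.12, with its second probe set at 1.04. Slc35f6, the zinc transporter Slc30a4 and Slc6a11 were lower by 0.29, 0.46 and 0.38 on the log2 scale. With an array left out, Slc35f6 lost its call in 5 of the 6 fits (adjusted p up to 0.151; kept without FRT/TSHR basal replicate 1). Slc30a4 lost it without FRTL5 basal replicate 3, FRT/TSHR basal replicate 1 or replicate 3 (up to 0.0734), and Slc6a11 without FRTL5 basal replicate 3, FRT/TSHR basal replicate 1 or replicate 2 (up to 0.265). Slc2a5 lost it without FRTL5 basal replicate 3 or FRT/TSHR basal replicate 2 (up to 0.0551), and Slc28a1 without FRTL5 basal replicate 3 (0.0543). None of the 5 monocarboxylate carriers was called between the basal lines.

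Of the 32 genes called at basal, 21 were called in every fit that left out 1 array. Of the 9 with several probe sets, all other probe sets were called in the same direction for 4 and at least 1 for 5. For the rest of the 9, Slc25a14 among them, no other probe set was called in the same direction. Slc12a3, Slc19a1, Slc2a5 and Slc8a1 also had several probe sets, and the values of the others are not given here. Slc34a1 and Slc4a1, not called here, each had another probe set that was called. With the replicate block all 32 were called and 5 were added (Slc12a4, Slc25a10, Slc37a4, Slc41a2 and Slc4a3). Replicate numbers pair arrays within a line and not between the lines. That fit therefore leaves spread between cultures out of this comparison and may call too many genes. Without the FRTL5 arrays numbered 1, Slc12a3, Slc35f6 and Slc8a1 were not called and Slc12a4, Slc14a1 and Slc41a2 were.

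Slc6a6, the taurine transporter, had the largest spread within a group of any solute carrier. In FRT/TSHR cells it read 5.94, 7.17 and 7.67 at basal, 6.05, 6.88 and 7.42 at 30 min and 5.59, 6.99 and 7.55 at 17 h. Replicate 1 was the lowest of each group, by at least 0.83. In FRTL5 cells all 9 arrays read between 5.56 and 6.38. The basal difference of 0.92 ± 0.46 was not called (adjusted p = 0.182).

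At 30 min of TSH 10 solute carriers were higher and 11 lower in FRT/TSHR than in FRTL5 cells, against 11.3% and 11.4% of all probe sets. At 17 h 11 were higher and 9 lower, against 11.5% and 8.94%. The comparisons at the 3 times share no arrays, although the cultures of a line share replicate numbers. A total of 36 genes were called at any time, 15 of them at all 3 times and in the same direction at each. These 15 made up 46.9% of the genes called at basal, 71.4% at 30 min and 75.0% at 17 h. Higher at all 3 were Slc7a5, Slc1a1, Slc12a2, Slc4a7, Slc22a18, Slc19a1, Slc44a4 and Slc26a1. Lower at all 3 were Slc25a4, Slc25a26, Slc27a1, Slc4a4, Slc12a7, Slc6a8 and Slc15a2. No gene was called in opposite directions at different times. Without the FRTL5 arrays numbered 1, Slc12a4, Slc25a30, Slc37a1 and Slc4a3 were called in addition at 30 min, and at 17 h Slc15a4, Slc16a7 and Slc41a2 were called in addition and Slc3a1 was not. Of the 15, Slc44a4 lost its 30 min call without FRTL5 replicate 2, FRT/TSHR replicate 1 or FRT/TSHR replicate 2 of that time (adjusted p up to 0.0867), and Slc26a1 lost its 17 h call without FRTL5 replicate 3 or FRT/TSHR replicate 2 of that time (up to 0.096).

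Slc25a4 differed by -4.60 at basal, -4.39 at 30 min and -5.00 at 17 h on the log2 scale, with FRT/TSHR means of 4.07, 4.16 and 4.15 and FRTL5 means of 8.67, 8.54 and 9.15. Slc22a18 differed by 1.97, 1.96 and 2.23. For other genes the values at 17 h were nearer to 0. Slc7a1 differed by 1.32 at basal, 1.57 at 30 min and 0.29 at 17 h, where it was not called (adjusted p = 0.279). Slc7a5 differed by 2.15, 2.00 and 1.17, and was called at each time. Slc5a3 differed by -0.87, -0.82 and -0.01 and Slc35b1 by 0.75, 0.52 and 0.19, neither called at 17 h. Slc12a7 differed by -1.30, -1.50 and -0.76 and Slc6a8 by -1.48, -1.49 and -0.66, and the 17 h call of Slc6a8 was lost without FRTL5 17 h replicate 1 (adjusted p = 0.0556) and without FRT/TSHR 17 h replicate 2.

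Slc25a5, Slc40a1 and Slc3a1 were called between the lines at 17 h but not at basal. Their basal differences were 0.05, 0.48 and -0.27, and the basal groups of Slc40a1 and Slc3a1 did not overlap. Without the block, limma did not call the difference between the lines in the 17 h effect for any of them. The adjusted p was 0.326 for Slc25a5, 0.923 for Slc40a1 and 0.998 for Slc3a1. Slc25a5 read 10.81, 10.23 and 10.29 in FRTL5 and 9.68, 9.54 and 9.87 in FRT/TSHR cells at 17 h, a difference of -0.75 ± 0.20 (adjusted p = 0.0124) that was lost without FRTL5 17 h replicate 1 (0.0706) and without FRT/TSHR 17 h replicate 2. Slc40a1, the iron exporter ferroportin, read 4.45, 4.35 and 4.30 in FRTL5 and 5.39, 5.31 and 5.22 in FRT/TSHR cells at 17 h. The difference was 0.94 ± 0.23 (adjusted p = 0.00723), and the FRTL5 level was not shown to lie above background. Slc3a1, a heavy chain for cystine transport, differed by -0.49 (adjusted p = 0.0451) and lost its call in 5 of the 6 fits with an array left out (up to 0.214; kept without FRTL5 17 h replicate 2). Slc37a1 differed by 1.12 at 17 h, against 0.74 at basal and 0.44 at 30 min. The difference between the lines in its 17 h effect was not called by limma (0.38, adjusted p = 0.818). Without overlap, Slc37a1 read 6.69, 6.22 and 6.35 in FRTL5 and 7.85, 7.33 and 7.44 in FRT/TSHR cells at 17 h.

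**Figure D5:**
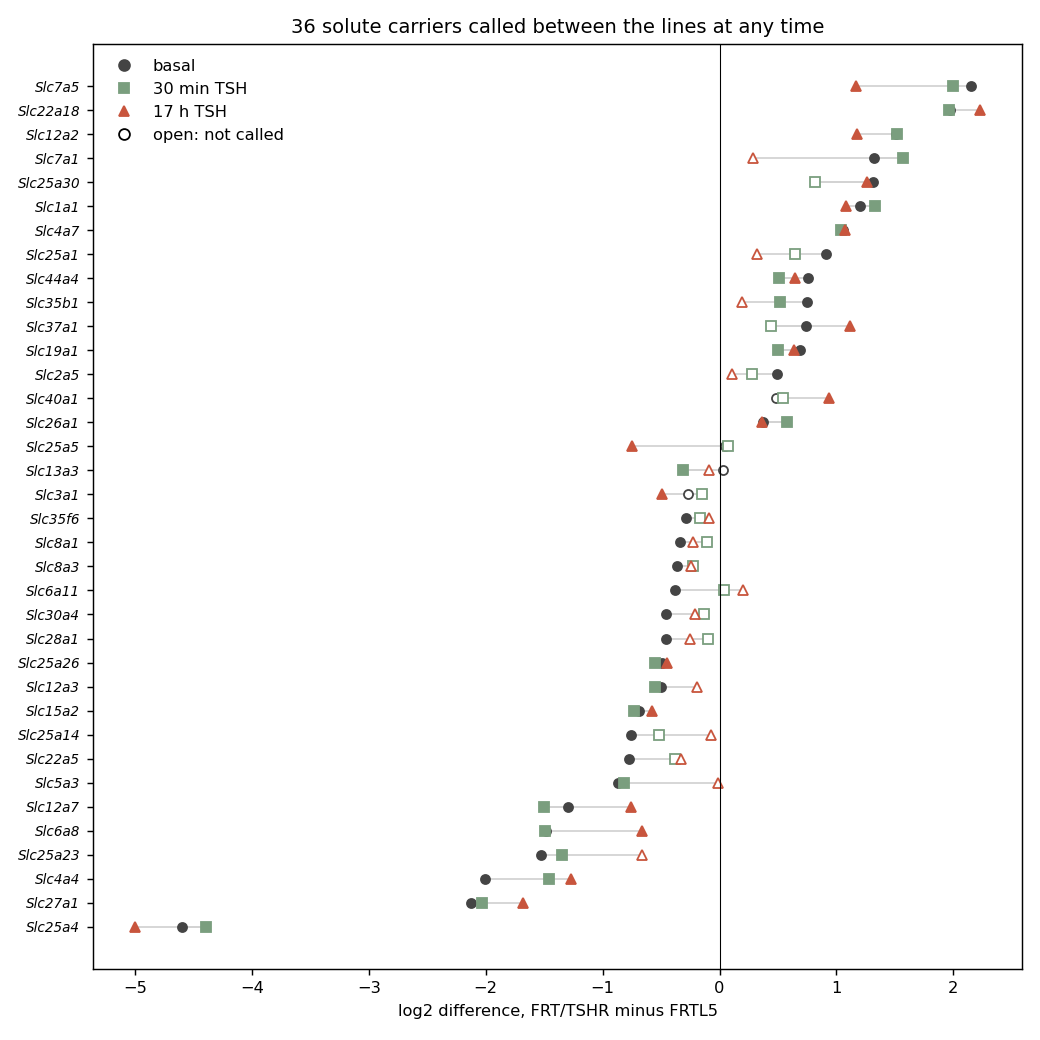
Log2 difference between FRT/TSHR and FRTL5 cells at basal (circles), 30 min (squares) and 17 h of TSH (triangles) for the 36 solute carriers called at any of the 3 times, ordered by the basal difference; open symbols were not called. The 3 values of Slc25a4 lie between -5.00 and -4.39, while those of Slc7a1 run from 1.57 at 30 min to 0.29 at 17 h.

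A list of 40 other membrane transporters held ion pumps, ABC transporters, organic anion transporters, aquaporins and partner proteins of transporters. In FRTL5 cells at 17 h of TSH 1 was higher and 0 lower, against 1.64% and 1.92% of all probe sets. The gene was the mitochondrial ABC transporter Abcb6, at 0.98. Between the basal lines 4 of the 40 were higher and 6 lower in FRT/TSHR cells, against 13.3% and 12.2% of all probe sets. Among them were Abcc3 at 2.08 and Abcb6 at -1.82. At 30 min 6 were higher and 6 lower, against 11.3% and 11.4% of all probe sets. At 17 h 5 were higher and 5 lower, against 11.5% and 8.94%.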

How the data were processed

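Per the submitters' processing notes, the authors deposited log2 expression values made with RMA (background correction, normalization across arrays, summary of each probe set); its version is not given in the sources used here. Scanner files were not analysed here, and no detection calls were had. From the 8799 probe sets 59 controls were removed and 8740 tested with no filter on signal. Symbols came from the platform annotation (1 symbol for 7006, several for 308, none for 1426), and all 117 genes matched GRCr8 by gene number. The members and lists were chosen with earlier results of these data known, and the substrate groups of Slc6a20a and Slc35f6 were assigned after the data were seen.

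The means of the 6 groups over all 18 arrays were estimated in a single limma 3.58.1 fit in R 4.3.3 (lmFit, eBayes; 12 residual and 3.597 prior degrees of freedom), tested on simulated data. Tests were two-sided, with Benjamini-Hochberg adjustment over 8740 probe sets within each of 9 comparisons. The labels call the replicates biological, and the number of arrays limits the precision. Genes named were, per comparison, up to 12 called in each direction by size, the 2 smallest p in each substrate group, genes listed in advance, and a few chosen after their values were seen.

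Replicate numbers come from the labels. Deviations from the group means of same-numbered arrays of a line correlated at 0.15 to 0.80, every pair over 0.1. The numbers were therefore taken as pairing the arrays. Deviations cancel out within a group, so these correlations are not independent. The FRTL5 arrays numbered 1, with the high beta-actin 3' signal, gave 0.69 to 0.80, and those numbered 2 and 3 gave 0.15 to 0.47. Whether shared cultures or array quality made the correlations was not tested. Alternatives were a replicate block, the arrays compared alone, median-centred arrays, no dim probe sets, a trended robust prior, the mean of a gene's probe sets, no FRTL5 arrays numbered 1, and leaving out each array.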

Additional observations from a re-analysis of the deposited data

Results flagged for a closer look

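Slc6a7, a proline transporter, read on opposite sides of its basal arrays in the 2 lines at 30 min of TSH, without overlap: the FRTL5 arrays read 4.60, 4.53 and 4.62 against 4.64, 4.72 and 4.85 at basal, and the FRT/TSHR arrays 4.66, 4.77 and 4.61 against 4.51, 4.44 and 4.52. Neither change was called (-0.15 and 0.19, adjusted p = 1 for each). The difference between the effects was 0.34, and it did not pass limma's test of that difference (adjusted p = 1).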

How the results depend on the processing

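The 5 solute carriers called at 17 h in FRTL5 cells became 14 with the replicate block, 10 with the block shared by both lines (an alternative chosen after seeing the data), 8 with the mean of each gene's probe sets, 2 when the model held the compared arrays alone, and 2 to 6 when an array was left out. For the difference between the lines in the 17 h effect, 0 became 6 with the replicate block, 3 with the shared block, 1 without dim probe sets, 1 with the mean of probe sets, 1 without the FRTL5 arrays numbered 1, and 0 to 1 when an array was left out. The cause of these differences was not tested. Between the lines, 32, 21 and 20 genes were called at basal, 30 min and 17 h, and every alternative stayed within 1.5 times these counts. Beyond the calls given in the report, the replicate block added 8 genes at 30 min (among them Slc25a30, Slc37a1 and Slc22a5) and 4 at 17 h (Slc16a7, Slc25a3, Slc37a4 and Slc41a2), and it changed no other call. Replicate numbers do not pair the lines, so these added calls leave out spread between cultures and may be too many. No named gene that was called reversed its direction under any alternative. Fewer calls came from dimmer genes: 25 of the 64 solute carriers with a mean above 5.55, the median of all probe sets, were called between the lines at any time, and 11 of the 53 at or below it; whether signal or a lack of difference set this was not tested.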
